A study of Mus musculus with 26 samples.

Results

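The genes of the proteasome, the protease complex that degrades ubiquitin-tagged proteins, were followed in S49 mouse T-lymphoma cells given a cAMP analog. They were taken as every gene whose single symbol in the platform annotation begins with Psma, Psmb, Psmc, Psmd, Psme, Psmf or Psmg followed by a digit. The rule found 48 genes of the 12393 named genes on the array, and 85 probe sets of 22626. Each gene is given by its brightest probe set, judged by the mean level of all 26 arrays. Of the 48 genes, 46 encode subunits, activators, an inhibitor or assembly chaperones. Psmc3ip and Psme3ip1 match the rule by symbol, but their products are not subunits, and they are described apart. By role there were 7 genes of the core alpha ring, 7 of the core beta ring, 6 regulatory ATPases and 11 regulatory non-ATPases. A further 4 genes belonged to the immunoproteasome, 7 were assembly chaperones, 3 were other activators or the inhibitor, and Psma8 encodes a tissue-restricted subunit. The only probe set for Psme2 carries more than 1 symbol, so Psme2 was not analysed here.

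Total RNA of 2 lines was measured on 26 arrays: Kin-, a variant of S49 known to lack protein kinase A (PKA) activity, and wild type (WT). Cells of both lines received 100 µM 8-CPT-cAMP, an analog of cAMP that enters cells and activates PKA, for 2, 6 or 24 h, or were left untreated (0 h). Each treated group of either line had 3 arrays and each untreated group had 4. The labels describe no further agent or allele and do not name separate cultures for the arrays, and the p-values may rest on a spread between arrays that is only technical. Both are cultured lines of 1 tumour, and Kin- stands for loss of PKA as 1 variant line. Levels are the square root of the authors' deposited score, read as a log2 intensity; this reading is an assumption, so that 1 unit need not equal a doubling. A gene is called higher or lower where limma's adjusted p is under 0.05, with the adjustment over all 22626 probe sets.

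In the proteasome, a cylinder of stacked alpha and beta rings holds the proteolytic sites inside, and the alpha rings form the gate. The regulatory particle on its ends binds ubiquitin chains, and its ATPases unfold the substrate and thread it in. Dedicated chaperones assemble the rings and the ATPase base, interferon exchanges the 3 catalytic beta subunits for immunoproteasome forms that favour peptides for MHC class I, and the factor Nfe2l1 raises subunit genes together when proteasome activity is short.

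The arrays fell into sets that cut across the groups. The first component of the deviations from group means held 35.5% of their variance and separated the 10 arrays numbered 1 to 14 from the 16 numbered 16 to 47, and every group held arrays of both. Each untreated group had 2 of its 4 arrays in the set 1 to 14 and each treated group 1 of 3, so a change in the unblocked fit also holds some of the difference between the sets. T-cell markers fitted the label, with 9 of 10 measured at a median level of 11.9 against 5.50 over all probe sets, although Cd5 stood at 3.23. The medians of the other marker lists were 3.99 for B cells, 4.75 for myeloid cells, 3.28 for fibroblasts and 4.43 for erythroid cells. In WT cells at 24 h 5 of the 9 T-cell markers rose and 2 fell, where 16.3% of all named genes were called in each direction. Of the 5 myeloid markers, Itgam rose in WT cells at 24 h, by 2.11 ± 0.26 (SE), and Adgre1 rose at 2 h by 0.23; the median level of the 5 was 5.19 in WT at 24 h and 4.47 in untreated WT, with Cd14 at 1.71. Their part in the results below was not tested. In bulk RNA, fewer cells of a type and less RNA per cell cannot be told apart.

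Promoter windows were available from RefSeq (GRCm38.p6) for 40 of the 48 genes, as 43 windows of 300 bases that run from 250 before to 50 after the start. They were searched on both strands for 5 motifs named for factors relevant to cAMP, proteasome or interferon control, and the 32851 windows of all genes were searched in the same way. The cAMP response element TGACGTCA was in 0 of the 43 windows, against 1.79% of all windows. The Nrf1-type element TGACNNNGC was in 6 windows (14.0%, against 12.4% of all), the NF-Y box CCAAT in 15 (34.9%, against 37.4%), and the STAT-type site TTCNNNGAA in 3 (6.98%, against 8.30%). The interferon-stimulated element, a GAAA repeat with 2 free bases between the copies, was in 5 windows (11.6%, against 3.44% of all). A match describes letters and is not a site of binding. The 6 windows with the Nrf1-type element are shown because this is the element known for joint control of the subunit genes; capitals mark the match, which in Psmc6, Psmd12 and Psme4 reads on the opposite strand.
Psmb5, chr14:54618024-54618052, minus strand: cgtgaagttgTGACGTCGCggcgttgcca
Psmb6, chr11:70525338-70525366, plus strand: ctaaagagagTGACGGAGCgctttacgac
Psmc6, chr14:45329587-45329615, plus strand: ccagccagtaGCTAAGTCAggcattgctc
Psmd12, chr11:107479278-107479299, plus strand: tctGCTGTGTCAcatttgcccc
Psmd9, chr5:123228149-123228177, plus strand: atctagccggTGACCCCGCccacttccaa
Psme4, chr11:30771758-30771786, plus strand: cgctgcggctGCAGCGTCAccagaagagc
These 6 genes did not move as 1 group in WT cells at 24 h: the fitted changes were −0.47 for Psmb6, −0.70 for Psmd12, −0.73 for Psmd9 and 0.59 for Psme4, all called, and −0.33 for Psmb5 and −0.37 for Psmc6, not called.

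In WT cells the proteasome genes were mostly lower after 24 h of the analog, and less so at the earlier times. At 2 h, 0 of the 48 genes were called higher and 5 lower, where 7.25% and 8.44% of all named genes were called. With the series of arrays as a block, that is arrays of consecutive numbers within a line, 10 of the 48 were called. These were not all falls: Psmb2 (0.28, adjusted p = 0.0178) and Psmd8 (0.29, adjusted p = 0.00277) were called higher. Psmd7 (−0.43) and Psmb8 (−0.36) were newly called lower. The block fit called 19.5% of all probe sets at 2 h. It draws nothing from untreated WT array 13 or Kin- array 14, which lie outside any series. At 6 h the unblocked fit called 2 of the 48 higher and 11 lower, against 11.0% and 11.1% of all genes. The lower share of 11 in 48 thus stood above the share over all genes, dim ones included, and the higher share below it. Psma8 apart, the proteasome genes lay above the median level of 5.50 over all probe sets. In a fit of the brighter probe sets only, 41.0% of these were called at 6 h (2199 of 4633 higher). At 24 h that fit called 56.8% (2898 of 6428 higher). The shares over all genes are thus a low background for genes this bright. At 24 h, 5 were called higher and 30 lower, against 16.3% of all genes in each direction. Of the 46 proteasome genes proper, 29 were lower, 5 higher and 12 did not pass at 24 h. Their median change was −0.11 at 2 h, −0.08 at 6 h and −0.46 at 24 h, beside medians of 0.05, −0.03 and −0.01 over all named genes. At 24 h the groups of arrays did not overlap for 29 of the 46 in the lower direction and 6 in the higher one, where 16.8% and 17.2% of all genes did so. Between treated times, 3 of the 48 were called higher and 2 lower at 6 h than at 2 h, against 7.64% and 6.38% of all genes. The block called 14 of the 48 there, and 24.0% of all probe sets. Among genes with array values, its new calls there were Psmb9 as higher (0.42) and others as lower. Those were Psmb2 (−0.45), Psmd1 (−0.29), Psmg2 (−0.42) and Psme3 (−0.64). Without the block, 2 were higher and 18 lower at 24 h than at 6 h, against 9.85% and 9.84% of all genes.

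**Figure D1:**
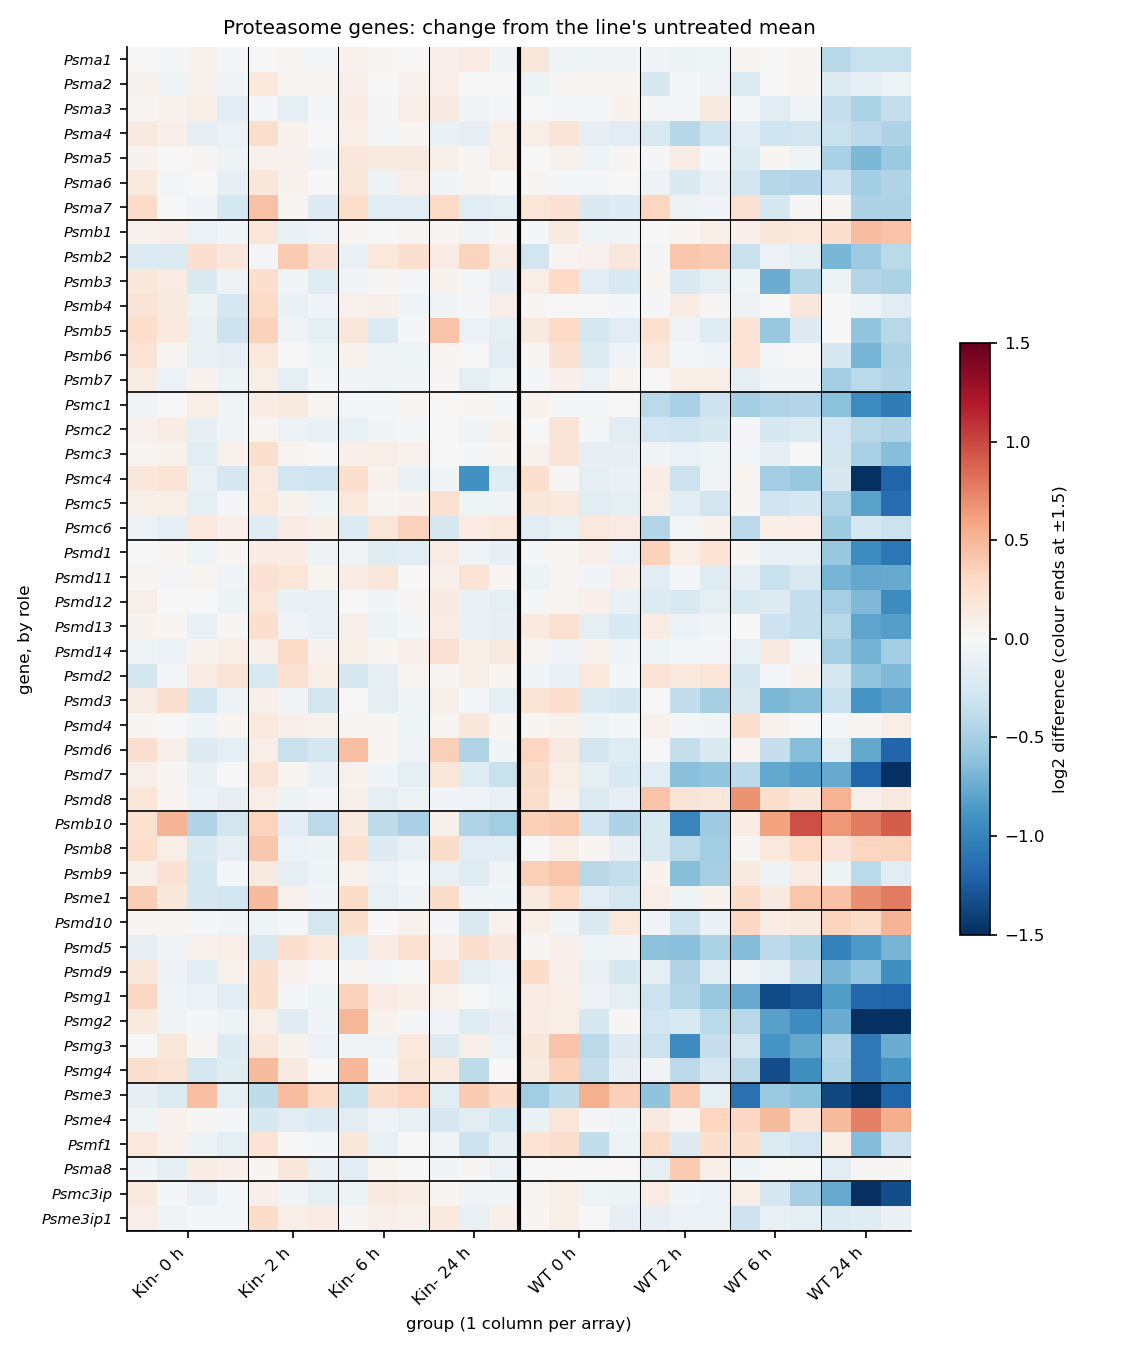
Heat map of the 48 genes (rows, grouped by role) in the 26 arrays (columns, Kin- left of WT, times from 0 to 24 h); colour is the log2 difference from the line's untreated mean, with the scale ending at ±1.5. The WT columns at 24 h are mostly blue, Psmb1, Psmb10, Psme1, Psmd10 and Psme4 are red there, and the Kin- columns stay pale apart from single arrays.

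The parts of the complex differed in size and time. At 24 h the median change was −0.37 for the 14 core genes, with 8 lower, 1 higher and 5 not passing. It was −0.68 for the 17 regulatory genes, with 14 lower, 0 higher and 3 not passing. The 7 assembly chaperones had a median of −0.81, with 6 lower and 1 higher. The 4 immunoproteasome genes had a median of 0.46, with 2 higher, 0 lower and 2 not passing. These counts stand beside 16.3% of all genes called in each direction at 24 h. At 6 h the assembly chaperones had a median of −0.64 and 5 of 7 lower, while the core had −0.07 with 1 of 14 lower and the regulatory genes −0.18 with 5 of 17 lower and 1 higher, where 11.1% of all genes were lower and 11.0% higher. At 2 h the counts of lower genes were 1 in the core, 2 in the regulatory particle, 2 among the chaperones and 0 in the immunoproteasome. Of all genes 8.44% were lower, and the shares of the core and the regulatory particle were near that. The times share their untreated arrays. Differences between the parts were not tested.

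**Figure D2:**
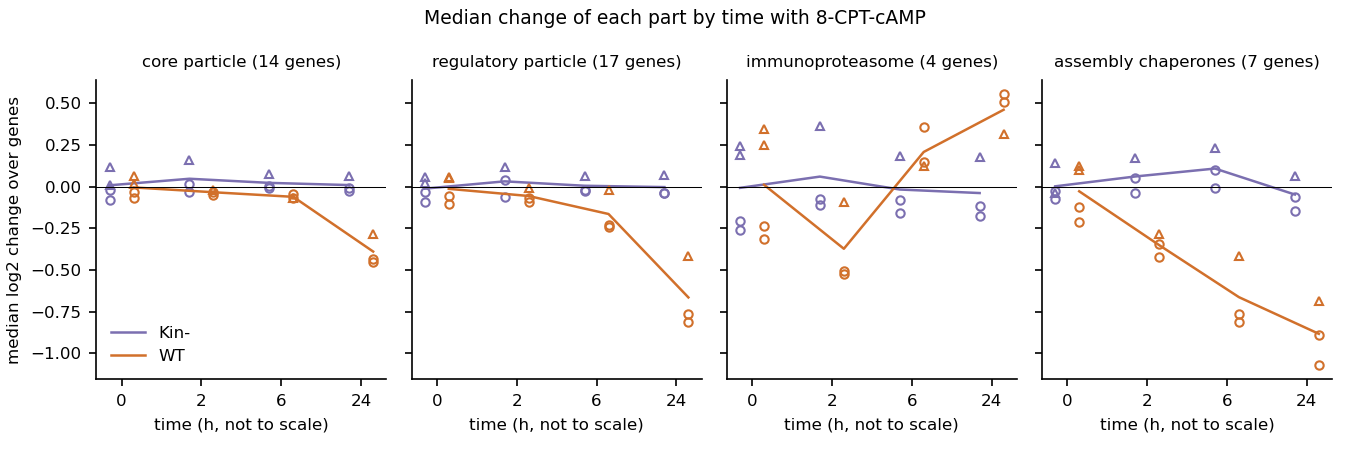
Median log2 change over the genes of each part (y axis) by time with the analog (x axis, not to scale); each point is an array, triangles are arrays 1 to 14 and circles arrays 16 to 47, and lines join the means, with Kin- in purple and WT in orange. At 24 h all WT points of the core and the regulatory particle lie below those of the other times, the WT chaperone points at 24 h lie below those of 0 and 2 h, and the WT immunoproteasome points at 6 and 24 h lie above 0, where 2 of the 4 untreated ones also lie.

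The alpha ring, whose 7 subunits form the gate of the core, was lower at 24 h with a median change of −0.39: 5 genes fell and 2, Psma2 (−0.13) and Psma7 (−0.30), did not pass. Psma5 measured 12.09, 11.90 and 12.02 in WT arrays at 24 h, against 12.57, 12.63, 12.51 and 12.59 in untreated WT arrays. All 3 treated arrays were below all 4 untreated ones, and the change was −0.57 ± 0.06 (SE; limma, adjusted p = 1.29e-07). Psma5 was at 12.55, 12.70 and 12.55 at 2 h and 12.37, 12.61 and 12.51 at 6 h, and neither time passed. Psma6 had already fallen at 6 h, with 12.79, 12.64 and 12.63 in the treated arrays against 13.11, 13.06, 13.05 and 13.07 untreated (change −0.38 ± 0.07, adjusted p = 0.000319). At 24 h it measured 12.76, 12.56 and 12.62 and the change was −0.42 ± 0.07 (adjusted p = 4.57e-05). The 6 h and 24 h arrays of Psma6 overlapped, and both sets lay below every untreated array. Psma4 fell by 0.32 ± 0.09 at 2 h (adjusted p = 0.0170) and by 0.40 ± 0.09 at 24 h (adjusted p = 0.00129). Its arrays read 11.91, 12.01, 11.71 and 11.67 untreated, 11.59, 11.40 and 11.52 at 2 h, 11.66, 11.53 and 11.55 at 6 h, and 11.49, 11.44 and 11.36 at 24 h. The treated arrays of all 3 times were below the untreated ones; the 2 h call was lost without WT array 1 (adjusted p = 0.0526), 13 (0.0672) or 17 (0.103), and the 6 h change did not pass. Psma1 (−0.36) and Psma3 (−0.39) also fell at 24 h.

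In the beta ring, which carries the proteolytic sites, 3 of 7 genes were lower at 24 h, 1 was higher and 3 did not pass, with a median of −0.33. Psmb7, the standard trypsin-like subunit, measured 12.11, 12.21 and 12.17 at 24 h, against 12.60, 12.70, 12.53 and 12.66 in untreated WT arrays. The sets did not overlap, and the change was −0.46 ± 0.06 (adjusted p = 4.94e-06). Psmb6, the standard caspase-like subunit, read 11.92, 11.48 and 11.71 at 24 h, against 12.20, 12.39, 11.99 and 12.13 untreated (change −0.47 ± 0.11, adjusted p = 0.00125). Psmb2, a structural subunit, read 9.80, 9.94 and 10.09, against 10.21, 10.53, 10.56 and 10.66 (change −0.55 ± 0.14, adjusted p = 0.00448). At 2 h Psmb2 read 10.466, 10.908 and 10.885, which was not called without the block. With the series as a block it was higher at 2 h (0.28, adjusted p = 0.0178). It then fell from 2 to 6 h in that fit (−0.45, adjusted p = 0.000608). At 24 h Psmb6 and Psmb2 were both lower in every treated array than in any untreated one. Psmb1, also structural, went the other way: 12.31, 12.54 and 12.50 at 24 h lay above the untreated 12.05, 12.20, 12.00 and 12.03, a rise of 0.38 ± 0.07 (adjusted p = 0.00015). Its arrays at 2 h (12.06, 12.10 and 12.17) and 6 h (12.15, 12.24 and 12.23) did not pass, although with the series as a block 6 h did (0.18, adjusted p = 0.0283). Psmb5, the standard chymotrypsin-like subunit, did not pass, with a change of −0.33 and an interval from −0.76 to 0.09, and neither did Psmb3 (−0.33) or Psmb4 (−0.08).

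The 6 ATPases of the regulatory particle, which unfold substrates, had a median change of −0.63 at 24 h, with 5 lower. Psmc1 was lower at every time. It measured 11.77, 11.69, 11.69 and 11.71 in untreated WT arrays, 11.31, 11.22 and 11.40 at 2 h, 11.21, 11.27 and 11.27 at 6 h, and 11.10, 10.77 and 10.67 at 24 h. The arrays of each time lay below all untreated arrays, and those of 24 h below those of 6 h. The changes from untreated were −0.40 ± 0.07, −0.47 ± 0.07 and −0.87 ± 0.07 at 2, 6 and 24 h (adjusted p = 0.000416, 6.16e-05 and 6.43e-09), and the step from 6 to 24 h was −0.40 ± 0.08 (adjusted p = 0.00063). Psmc5 read 10.98, 10.63 and 10.28 at 24 h, against 11.61, 11.57, 11.26 and 11.28 untreated (change −0.80 ± 0.13, adjusted p = 6.14e-05), with no overlap. Psmc4 had the widest spread, with 12.23, 10.97 and 11.27 at 24 h against 12.70, 12.47, 12.31 and 12.36 untreated. Its change was −0.98 ± 0.25 (adjusted p = 0.00337), and array 4, of the set 1 to 14, stood much nearer to the untreated arrays than the other two. Psmc2 fell at 2 h (−0.28, adjusted p = 0.0144) and 24 h (−0.38), with the 2 h call lost without WT array 13 or 17 (adjusted p up to 0.0584). Psmc3 fell at 24 h (−0.47), and Psmc6 did not pass (−0.37, adjusted p = 0.0813).

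Among the 11 non-ATPases, the scaffold, lid and ubiquitin-binding subunits, 9 fell at 24 h and the median change was −0.68. Psmd7, the lid partner of the deubiquitinase Psmd14, had the largest fall of these. It measured 11.20, 11.03, 10.79 and 10.70 in untreated WT arrays, 10.76, 10.30 and 10.33 at 2 h, 10.54, 10.16 and 10.10 at 6 h, and 10.18, 9.73 and 9.39 at 24 h. The 6 h and 24 h arrays lay below every untreated array, and 1 array at 2 h lay among them. The change was −0.46 ± 0.17 at 2 h (adjusted p = 0.0727; 0.000915 with the series as a block), −0.66 ± 0.17 at 6 h (adjusted p = 0.00605) and −1.16 ± 0.17 at 24 h (adjusted p = 9.58e-06). Psmd1, a scaffold of the base, took another course, with 12.02, 12.08, 12.12 and 11.96 untreated, 12.39, 12.15 and 12.25 at 2 h, 12.06, 11.93 and 11.93 at 6 h, and 11.48, 11.10 and 10.96 at 24 h. Its arrays were above the untreated ones at 2 h without passing (0.22, adjusted p = 0.150), and the fall at 24 h was −0.87 ± 0.09 (adjusted p = 2.68e-07). Psmd11, a lid subunit that clamps the regulatory particle to the core, fell by 0.23 ± 0.06 at 6 h (adjusted p = 0.0122) and by 0.74 ± 0.06 at 24 h (adjusted p = 1.13e-08). Its arrays at 24 h, 10.64, 10.57 and 10.59, were tightly grouped and lay below the untreated 11.28, 11.38, 11.31 and 11.42; the 6 h call was lost without WT array 18 (adjusted p = 0.105).

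The other non-ATPases that fell at 24 h were Psmd14, the deubiquitinase of the lid (−0.58), Psmd2 (−0.50), Psmd3 (−0.68), Psmd6 (−0.70), Psmd12 (−0.70) and Psmd13 (−0.68). The Psmd6 call (adjusted p = 0.0222) was lost without WT array 1, 13, 19 or 39, with adjusted p up to 0.197. Psmd4, a ubiquitin receptor, measured a change of 0.03 with an interval from −0.09 to 0.15. Psmd8, a lid subunit, was called higher at 6 h (0.37 ± 0.13, adjusted p = 0.0471), but its 6 h arrays, 12.22, 11.81 and 11.72, overlapped the untreated 11.82, 11.62, 11.35 and 11.43. That call was lost in 19 of the 26 fits that left out 1 array, with adjusted p up to 0.328. With the series of arrays as a block, Psmd8 passed at 2 h (adjusted p = 0.00277) and 24 h (adjusted p = 0.00207), where the unblocked fit did not call it.

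**Figure D3:**
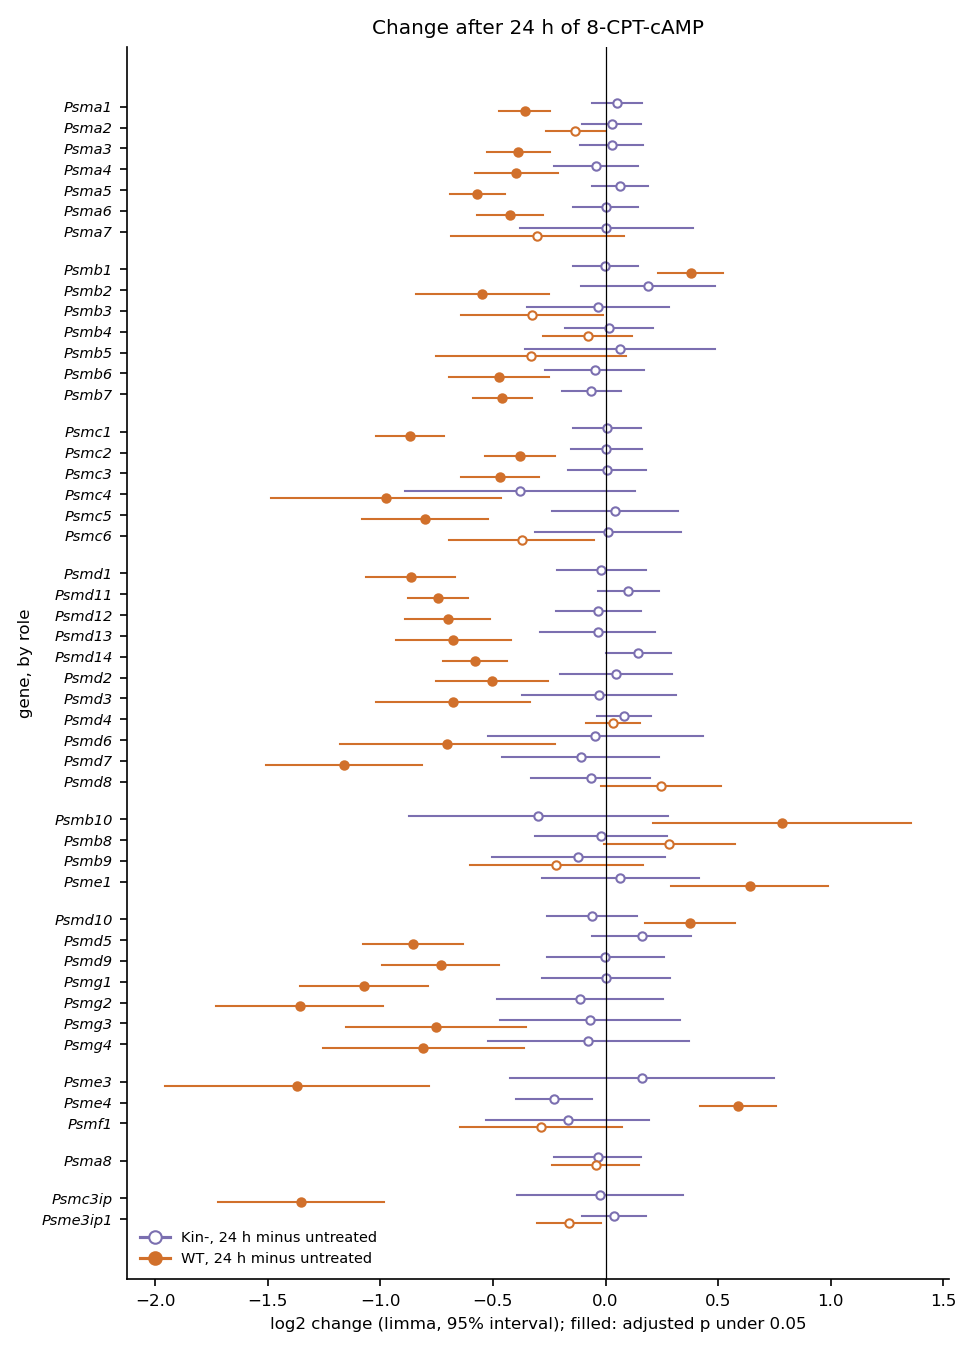
Change at 24 h in log2 units (x axis) for each gene (y axis, grouped by role), with 95% intervals from limma; purple is Kin- (24 h minus untreated) and orange WT, and filled points have an adjusted p under 0.05. In WT, 30 points are filled left of 0 and 5 right of it, and no Kin- point is filled.

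None of the 4 immunoproteasome genes was called lower at 24 h. Psmb10, the immunoproteasome counterpart of Psmb7, is shown first with its upstream 250 bases, because it had the largest rise at 24 h; none of the 5 motifs matched, so no letter is in capitals (chr8:105938393-105938642, minus strand, GRCm38.p6).
Psmb10 upstream: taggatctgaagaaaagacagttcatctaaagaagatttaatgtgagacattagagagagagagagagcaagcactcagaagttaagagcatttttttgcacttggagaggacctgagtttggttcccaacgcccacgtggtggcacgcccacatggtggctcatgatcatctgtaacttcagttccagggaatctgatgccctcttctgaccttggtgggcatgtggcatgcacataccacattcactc
Psmb10 read 10.17, 10.20, 9.51 and 9.35 in untreated WT arrays, 9.57, 8.81 and 9.27 at 2 h, 9.92, 10.41 and 10.77 at 6 h, and 10.46, 10.59 and 10.72 at 24 h. The 24 h arrays lay above all untreated arrays, and those of 2 h overlapped them at the low end. The change was −0.59 ± 0.28 at 2 h (adjusted p = 0.189), 0.56 ± 0.28 at 6 h (adjusted p = 0.200) and 0.78 ± 0.28 at 24 h (adjusted p = 0.0350), and the step from 2 to 6 h was 1.15 ± 0.30 (adjusted p = 0.0122). The call of that step was lost without WT array 17 (adjusted p = 0.0732) or 38 (0.0765). The 24 h call was lost without WT array 16 (adjusted p = 0.0978), 36 (0.119), 19 (0.0843) or 39 (0.116). Untreated arrays 1 and 13 were above 16 and 36, and within the sets the 24 h change was 0.28 for arrays 1 to 14 but 1.23 for arrays 16 to 47; the part of the array set was not tested further.

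Psme1, a subunit of the interferon-inducible cap of the core, rose at 24 h. Its arrays read 12.06, 12.22, 11.74 and 11.65 untreated, 12.01, 11.86 and 11.98 at 2 h, 12.20, 12.06 and 12.33 at 6 h, and 12.36, 12.62 and 12.70 at 24 h. The 24 h arrays were above all untreated ones, and the change was 0.64 ± 0.17 (adjusted p = 0.00476), with 0.22 within arrays 1 to 14 and 0.96 within arrays 16 to 47. Psmb8, the counterpart of Psmb5, read 12.13, 12.20, 12.15 and 11.99 untreated, 11.89, 11.72 and 11.60 at 2 h, 12.14, 12.27 and 12.42 at 6 h, and 12.32, 12.44 and 12.46 at 24 h. Its arrays lay below the untreated ones at 2 h and above them at 24 h without overlap, but neither change passed (−0.38, adjusted p = 0.0773, and 0.28, adjusted p = 0.156). With the series of arrays as a block both passed (adjusted p = 0.00469 and 0.00571), and so did Psmb10 (adjusted p = 0.0291) and Psme1 (adjusted p = 0.0176) at 6 h. The step from 2 to 6 h in Psmb8 was 0.54 ± 0.15 (adjusted p = 0.0201), a call lost without WT array 17 (adjusted p = 0.0591), 37 (0.0836), 18 (0.0527) or 38 (0.0942). Psmb9, the counterpart of Psmb6, read 10.20, 9.87 and 10.11 at 24 h, against 10.64, 10.70, 9.86 and 9.92 untreated, and these overlapped (−0.22, adjusted p = 0.505). It read 10.333, 9.645 and 9.788 at 2 h and 10.417, 10.208 and 10.408 at 6 h. The step from 2 to 6 h in Psmb9 passed with the series as a block (0.42, adjusted p = 0.0112) and not without it.

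Set against its standard counterpart within each array, Psmb10 over Psmb7 changed by 1.24 ± 0.11 (SD, n = 3) in WT at 24 h on the log2 scale of the ratio, without overlap with the untreated arrays. Psmb8 over Psmb5 changed by 0.62 ± 0.38 and Psmb9 over Psmb6 by 0.25 ± 0.07, both overlapping the untreated arrays. At 2 h Psmb8 over Psmb5 changed by −0.38 ± 0.06, with no overlap. Each ± is the spread of the 3 treated arrays only. In the untreated WT arrays the SD was 0.43 for Psmb10 over Psmb7, 0.23 for Psmb8 over Psmb5 and 0.32 for Psmb9 over Psmb6. At 24 h Psmb9 over Psmb6 was 0.17 in array 4, below 0.34 and 0.21 in untreated arrays 1 and 13. It was 0.28 and 0.30 in arrays 19 and 39, above −0.23 and −0.31 in untreated arrays 16 and 36. Its direction thus differed between the array sets. A ratio within an array shows unequal change and not which gene moved. The windows around the interferon-type matches of Psme1 (interferon-stimulated element, opposite strand) and Psmb8 (STAT-type site) are shown because interferon is the known inducer of these genes.
Psme1, chr14:55578493-55578522, plus strand: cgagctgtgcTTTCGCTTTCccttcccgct
Psmb8, chr17:34198088-34198116, plus strand: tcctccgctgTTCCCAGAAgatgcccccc
The interferon-stimulated element also matched in Psmb3, Psmd4, Psmd9 and Psmg4, of which Psmd9 and Psmg4 fell at 24 h, and the STAT-type site matched in Psmd2 and Psmg1, which both fell.

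**Figure D4:**
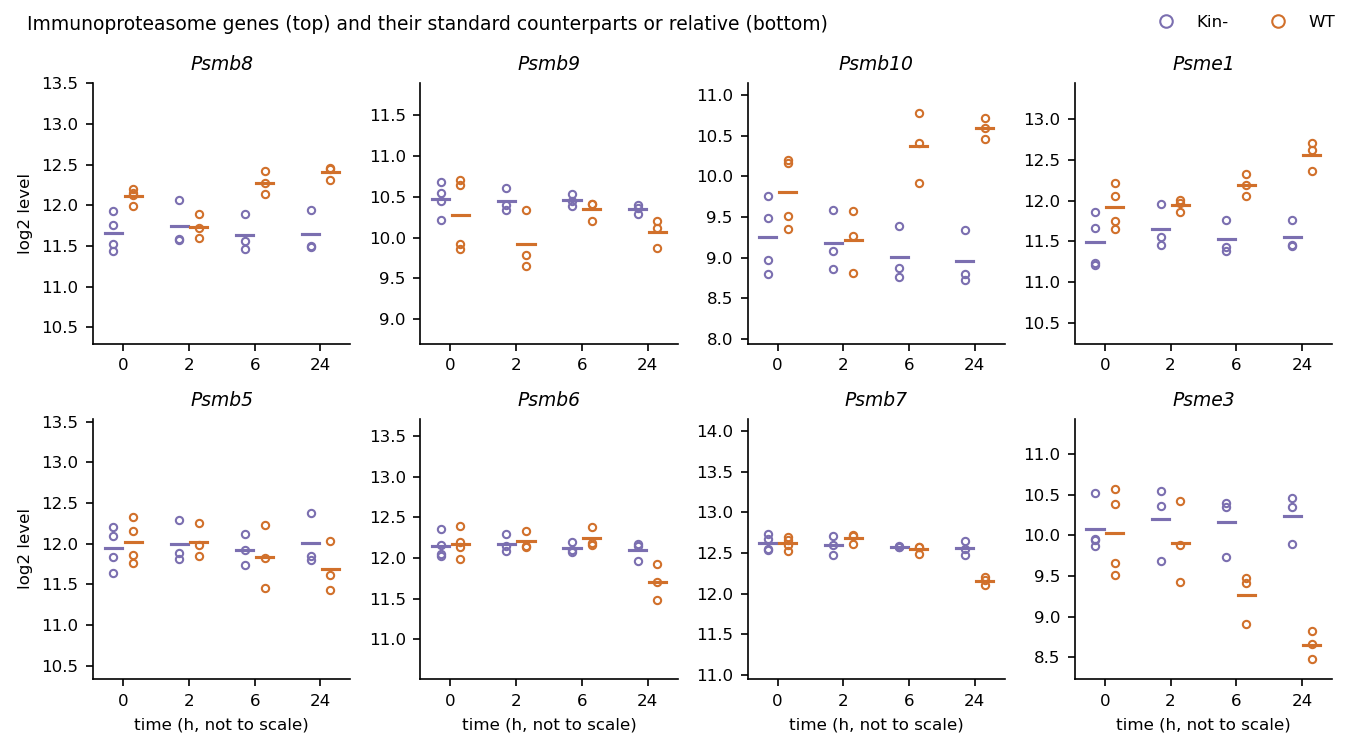
Log2 level in each array (points) with group means (bars) by time with the analog (x axis, not to scale) for 4 immunoproteasome genes (top) and Psmb5, Psmb6, Psmb7 and Psme3 (bottom), Kin- in purple left of WT in orange; every panel spans the same range of log2 units. WT Psmb10, Psme1 and Psmb8 are lowest or level at 2 h and highest at 24 h, and WT Psmb6, Psmb7 and Psme3 are lowest at 24 h.

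Of the 7 assembly chaperones 6 fell at 24 h, and 5 of these had already fallen at 6 h. Psmg1 and Psmg2 form the pair that assembles the alpha ring. Psmg1 had the largest fall of the 46 genes at 6 h, and its 250 upstream bases are shown for that reason (chr16:95990961-95991210, minus strand); capitals mark the STAT-type match.
Psmg1 upstream: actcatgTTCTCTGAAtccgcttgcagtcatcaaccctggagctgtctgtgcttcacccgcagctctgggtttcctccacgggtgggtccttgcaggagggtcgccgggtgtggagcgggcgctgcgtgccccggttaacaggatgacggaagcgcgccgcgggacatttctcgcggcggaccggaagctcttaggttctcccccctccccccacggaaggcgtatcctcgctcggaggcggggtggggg
Psmg1 read 10.84, 10.82, 10.63 and 10.58 in untreated WT arrays, 10.39, 10.29 and 10.15 at 2 h, 9.96, 9.38 and 9.42 at 6 h, and 9.88, 9.54 and 9.52 at 24 h. The arrays of every time lay below all untreated ones, and those of 6 and 24 h overlapped each other. The changes were −0.44 ± 0.14 at 2 h (adjusted p = 0.0345), −1.13 ± 0.14 at 6 h (adjusted p = 3.17e-06) and −1.07 ± 0.14 at 24 h (adjusted p = 2.05e-06). The step from 6 to 24 h was 0.06 ± 0.15 and did not pass; the 2 h call was lost without WT array 1, 13, 17 or 37, with adjusted p up to 0.163. Psmg2 read 10.93, 10.92, 10.59 and 10.84 untreated, 10.54, 10.59 and 10.42 at 2 h, 10.41, 10.01 and 9.88 at 6 h, and 10.08, 9.20 and 9.11 at 24 h. Its arrays at 6 and 24 h were below all untreated ones, with changes of −0.72 ± 0.18 (adjusted p = 0.00487) and −1.36 ± 0.18 (adjusted p = 2.76e-06).

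Psmg3 and Psmg4, the second chaperone pair of the alpha ring, fell at 6 h by 0.64 and 0.89 and at 24 h by 0.75 and 0.81; the 6 h call of Psmg3 (adjusted p = 0.0194) was lost without WT array 1, 13, 18 or 38, with adjusted p up to 0.124. Psmd5, a chaperone of the ATPase base, read 10.54, 10.60, 10.46 and 10.47 untreated, 9.91, 9.90 and 10.04 at 2 h, 9.86, 10.12 and 10.04 at 6 h, and 9.51, 9.66 and 9.83 at 24 h. The treated arrays were below the untreated ones at all 3 times, with changes of −0.57 ± 0.11 at 2 h (adjusted p = 0.000605), −0.51 ± 0.11 at 6 h (adjusted p = 0.00121) and −0.85 ± 0.11 at 24 h (adjusted p = 1.47e-06). Psmd9, another base chaperone, fell at 24 h (−0.73) and did not pass at 6 h (−0.18, adjusted p = 0.432). Psmd10, the third base chaperone, also known as an oncoprotein, rose: 9.60, 9.55 and 9.78 at 24 h lay above the untreated 9.36, 9.23, 9.05 and 9.43, a change of 0.37 ± 0.10 (adjusted p = 0.00407).

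**Figure D5:**
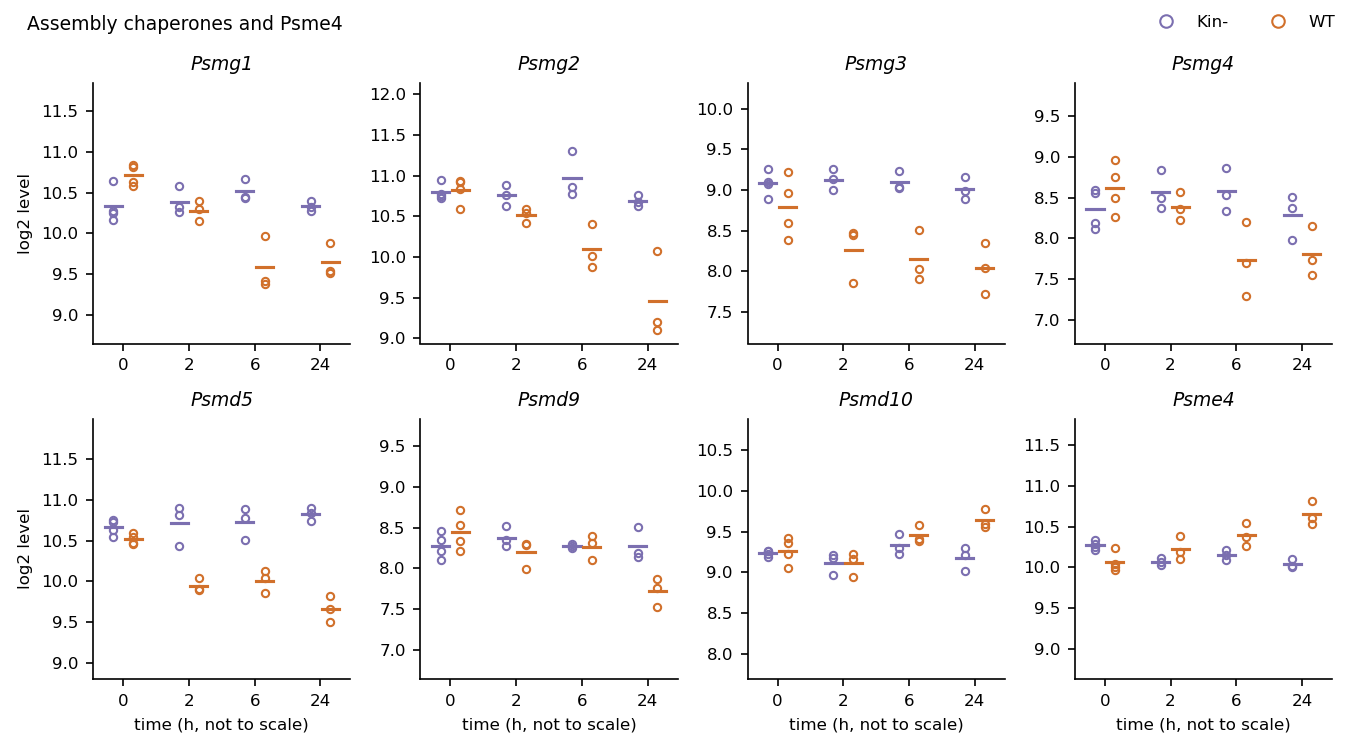
Log2 level in each array (points) with group means (bars) by time with the analog (x axis, not to scale) for the 7 assembly chaperones and Psme4, Kin- in purple left of WT in orange; every panel spans the same range of log2 units. WT Psmg1 is as low at 6 h as at 24 h, WT Psmg2 is lowest at 24 h, and WT Psmd10 and Psme4 are highest at 24 h.

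The alternative activators moved in opposite directions. Psme3, which forms the nuclear cap of the core, had the largest fall of the 46 genes at 24 h, and its upstream 250 bases are shown for that reason (chr11:101315963-101316212, plus strand); capitals mark an NF-Y box on the opposite strand.
Psme3 upstream: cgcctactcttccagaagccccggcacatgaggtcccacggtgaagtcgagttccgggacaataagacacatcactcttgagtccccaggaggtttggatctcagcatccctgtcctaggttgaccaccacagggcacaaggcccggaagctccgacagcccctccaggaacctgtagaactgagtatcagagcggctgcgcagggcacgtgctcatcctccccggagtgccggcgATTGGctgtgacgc
Psme3 read 9.51, 9.65, 10.56 and 10.39 in untreated WT arrays, 9.43, 10.43 and 9.88 at 2 h, 8.91, 9.47 and 9.41 at 6 h, and 8.66, 8.48 and 8.83 at 24 h. Untreated arrays 1 and 13 were well below 16 and 36, and even so all arrays of 6 and 24 h lay below all 4. The change was −0.76 ± 0.28 at 6 h (adjusted p = 0.0639; 0.0021 with the series as a block) and −1.37 ± 0.28 at 24 h (adjusted p = 0.000528). Psme4, a large activator linked to histone degradation, read 9.96, 10.24, 10.04 and 10.00 untreated, 10.19, 10.10 and 10.39 at 2 h, 10.38, 10.54 and 10.26 at 6 h, and 10.53, 10.81 and 10.61 at 24 h. Its arrays lay above all untreated ones at 6 and 24 h, with rises of 0.33 ± 0.08 (adjusted p = 0.00499) and 0.59 ± 0.08 (adjusted p = 5.85e-06); the 6 h call was lost without WT array 18 (adjusted p = 0.0551). Its probe set is of a type that can match several transcripts, as are those of Psmd11, Psmc2 and Psmb4. Psmf1, an inhibitor of the core, measured −0.29 and did not pass, and Psma8, known from testis, stood at a mean level of 2.66 and changed by −0.04.

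Of the genes matched by symbol only, Psmc3ip, whose product acts in meiotic recombination, read 8.78, 7.57 and 8.20 at 24 h, against 9.58, 9.62, 9.47 and 9.46 in untreated WT arrays. All 3 were below every untreated array (change −1.35 ± 0.18, adjusted p = 2.79e-06), and at 6 h its arrays, 9.64, 9.27 and 9.04, overlapped them. Psme3ip1, whose product binds Psme3, changed by −0.16 at 24 h (adjusted p = 0.0817).

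In Kin- cells no proteasome gene was called at any time: limma called 0 of 48 at 2, 6 and 24 h, where it also called 0% of all named genes. At an unadjusted p under 0.05 there were 3, 1 and 2 of the 48 genes at 2, 6 and 24 h, against 2.17%, 1.93% and 2.32% of all genes. The fitted changes ran from −0.20 to 0.21 at 2 h, from −0.24 to 0.21 at 6 h and from −0.38 to 0.19 at 24 h. The lowest of these was Psmc4 at 24 h, where 1 array read 11.64 and the others 12.51 and 12.38, against 12.72, 12.76, 12.44 and 12.30 in untreated Kin- arrays. Psmg1 read 10.39, 10.33 and 10.27 in Kin- arrays at 24 h, against 10.64, 10.27, 10.25 and 10.16 untreated, and these overlapped. Psme4, which rose in WT, read 10.01, 10.11 and 10.00 in Kin- arrays at 24 h, against 10.21, 10.33, 10.29 and 10.25 untreated. These did not overlap, in the lower direction, where 1.81% of all genes did so, and the change was −0.23 ± 0.08 (unadjusted p = 0.0109, adjusted p = 1.00).

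The difference between the lines' responses, Kin- minus WT, was tested directly, so a positive value means a higher change in Kin- than in WT. At 2 h it was called higher for 3 and lower for 0 of the 48 genes, against 4.02% and 3.70% of all genes. At 6 h it was called higher for 7 and lower for 1, against 6.54% and 5.91%. At 24 h it was called higher for 24 and lower for 3, against 12.0% and 11.7%. The median over the 46 genes at 24 h was 0.42, beside 0.003 over all named genes. By part, it was called higher for 7 of 14 core genes, 11 of 17 regulatory genes and 4 of 7 chaperones, and lower for Psmb1, Psmd10 and Psme4; with the series as a block Psmd8 was lower too (−0.33, adjusted p = 0.00879). With the series as a block 9 of the 48 genes were called at 2 h and 13 at 6 h, where that fit called 11.6% and 16.9% of all probe sets. These comparisons share the treated and untreated WT arrays with those above.

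Among the called genes of the 46 the largest differences at 24 h were in Psme3, Psmg2, Psmg1, Psmd7 and Psmd5. Psme3 read 9.90, 10.46 and 10.35 in Kin- arrays at 24 h and 9.96, 9.87, 10.52 and 9.94 in untreated Kin- arrays, and its difference was 1.53 ± 0.40 (SE; adjusted p = 0.00673). Psmg2 differed by 1.24 ± 0.25 (adjusted p = 0.000776), with 10.76, 10.62 and 10.68 in Kin- at 24 h and 10.95, 10.75, 10.78 and 10.73 in untreated Kin-. For Psmg1 the difference was 1.32 ± 0.19 at 6 h (adjusted p = 9.45e-05) and 1.07 ± 0.19 at 24 h. For Psmd7 it was 1.05 ± 0.24, and the 13 Kin- arrays of all times ran from 10.6 to 11.1. For no immunoproteasome gene was the difference called without the block at 2, 6 or 24 h. At 24 h Psmb10 measured −1.08 ± 0.39 (adjusted p = 0.0532; 0.0180 with the series as a block) and Psme1 −0.58 ± 0.24 (adjusted p = 0.0999; 0.00600 with the block). At 2 h the block called the Psmb8 difference (0.47, adjusted p = 0.0131).

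Between the untreated lines, 0 of the 46 proteasome genes were called by limma, and of the 48 only Psme3ip1 was, lower in Kin- by 0.32 ± 0.06 (adjusted p = 0.00556), against 1.73% of all genes in that direction. At an unadjusted p under 0.05 there were 14 of the 48, against 12.4% of all genes. The immunoproteasome gene nearest to the threshold was Psmb8, with 11.93, 11.76, 11.44 and 11.53 in untreated Kin- arrays against 12.13, 12.20, 12.15 and 11.99 in untreated WT arrays. These did not overlap, where 4.19% of all genes did so in that direction, and the difference was −0.46 ± 0.13 (adjusted p = 0.0637). The fit with the array set as a term called 7 of the 48 genes lower in Kin-. In either direction it called 5.98% of all probe sets, against 3.01% in the main fit. Among the 7 were Psmb8 (adjusted p = 0.00955), Psmg1 (−0.39, adjusted p = 0.0021) and Psme1 (−0.43, adjusted p = 0.0341).

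Changes at 24 h were also read within each array set. Of the 34 called genes among the 46, all 34 had the same sign when only arrays 1 to 14, or only arrays 16 to 47, were used. The same arrays gave the calls, so this agreement was largely set by the selection and is no separate support. The median changes in arrays 1 to 14 and 16 to 47 were −0.33 and −0.29 for the core, −0.50 and −0.70 for the regulatory genes and −0.85 and −0.72 for the chaperones. For the immunoproteasome they were 0.18 and 0.67 at 24 h, and −0.14 and 0.46 at 6 h, so its direction at 6 h differed between the sets. Of the 21 genes with more than 1 probe set, 15 were called by the brightest at 24 h. The next brightest had the same sign in all 15 and passed in 12, and in no gene did probe sets pass in opposite directions.

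Partners of the proteasome moved in part with it. Of 27 listed genes that deubiquitinate, deliver substrates to or mature the proteasome, 17 were measured, and at 24 h in WT 8 fell, 2 rose and 7 did not pass, with a median of −0.36, where 16.3% of all genes were called in each direction. The deubiquitinases of the regulatory particle fell: the change was −1.12 ± 0.11 for Usp14 (adjusted p = 1.17e-07) and −0.98 ± 0.17 for Uchl5 (adjusted p = 8.91e-05). The shuttle genes Rad23b (−1.10), Ubqln4 (−0.93) and Ubqln1 (−0.50) fell too. Zfand2a, an adaptor induced by stress, rose by 2.85 at 2 h, 1.11 at 6 h and 1.37 at 24 h. Akirin2, needed for nuclear import of the proteasome, rose by 0.62, 0.67 and 0.36 at these times. Pomp, the maturation factor of the core, changed by −0.01 at 24 h, and Sem1, a small regulatory subunit outside the symbol rule, by 0.27 (adjusted p = 0.160). In Kin- cells 0 of the 17 passed at any time.

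Of 14 listed factors known to control proteasome genes, 13 were measured. At 24 h in WT 5 fell, Stat3 rose by 1.69 ± 0.24 (adjusted p = 8.64e-06) and 7 did not pass, against the same 16.3% in each direction. Nfe2l1 changed by −0.07 ± 0.21 (adjusted p = 0.972), while Nfe2l2, a related factor of the oxidative response, fell by 0.46, its inhibitor Keap1 by 0.69, and the NF-Y subunits Nfyb and Nfyc by 0.43 and 0.71. Of 22 listed genes of antigen processing and interferon signalling, 20 were measured, and at 24 h 15 rose, 1 fell and 4 did not pass, with a median of 1.19, again against 16.3% in each direction. Among them the peptide transporter gene Tap1 rose by 1.34, the loading gene Tapbp by 1.94, Irf1 by 1.16 and Irf8 by 3.54, and the class I gene H2-K1 fell by 0.38. At 2 h 9 of the 20 rose and 2 fell, one of these being Tap2 (−1.31), and at 6 h 15 rose and 1 fell, where 7.25% of all genes rose and 8.44% fell at 2 h and 11.0% rose and 11.1% fell at 6 h. In Kin- cells 0 of the 13 factors and 0 of the 20 antigen-processing genes passed at any time.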

How the data were processed

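Total RNA of 26 samples was measured on arrays of 22626 probe sets. The authors deposited 1 processed value per probe set and array, a score. How it was scaled, background-corrected and normalized is not given in the sources used here. The deposited values ran from 0.375 to 267 with column medians of 29.1 to 30.6. Their square root (0.612 to 16.4) was taken for a log2 intensity, since it spans the range usual for one. Arrays have no read depth, and their number sets the precision; the median standard error of a treated against untreated change was 0.12 over the 48 genes. Gene symbols came from the platform annotation: 20380 probe sets had 1 symbol, 691 several and 1555 none, and only the first were named. All 48 genes matched the current gene table by gene ID.

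One model with a mean for each of the 8 groups was fitted over all probe sets with limma 3.58.1 in R 4.3.3, with empirical Bayes moderation and Benjamini-Hochberg adjustment over 22626 probe sets. Tables and figures used Python 3.11.15, pandas 2.3.3, numpy 2.4.6 and matplotlib 3.10.9. Any gene of the symbol rule could be named. Array values were given for the immunoproteasome genes and the 3 genes of each part with the largest called change in WT at 24 h. They were also given for genes called against the direction of most others. Not every time is printed for each of these genes, and Kin- arrays are printed for few of them. The members and lists were chosen with earlier results of these data known. Consecutive array numbers within a line form series of 1 array per time; arrays of the same series deviated together from their group means (median correlation 0.372, lowest 0.23, against −0.286 between series of a line), although within arrays 16 to 47 the medians were 0.331 for the same series and 0.268 for others. The pairing comes from the array numbers in the titles, and the fit with the series as a block is an alternative. Untreated WT array 13 and Kin- array 14 belong to no series and formed blocks of their own, so they add nothing to its changes. The untreated arrays behind those changes were 1, 16 and 36 in WT and 5, 40 and 44 in Kin-.

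Alternatives were other scales, quantile normalization, the array set as a term or as a restriction, the series block, array weights, a trended prior, the arrays of 1 line, brighter probe sets only, the mean of a gene's probe sets, and each array left out. Psme2 and genes without a single-symbol probe set were left out.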

Additional observations from a re-analysis of the deposited data

Results flagged for a closer look

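In untreated Kin- cells, array 40 stood apart from the other 3 arrays for Psme3, at 10.524 against 9.96, 9.87 and 9.94, with a gap of 0.873 of the group's range. Of 50 gene and group pairs examined in this way, chance flags about 1 in 20.

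The response differed between the lines, tested as Kin- minus WT, for the following genes. At 2 h the difference was 0.42 for Psma4, 0.49 for Psmc1 and 0.63 for Psmd5. The Psma4 call was lost in 16 of the 26 fits that left out 1 array, with adjusted p up to 0.158.

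At 6 h it was 0.45 for Psma6, 0.46 for Psmc1, 0.32 for Psmd11, 0.57 for Psmd5, 1.32 for Psmg1, 0.90 for Psmg2 and −0.45 for Psme4. The Psmd11 call was lost without WT array 18 or Kin- array 7 or 42 (adjusted p up to 0.0895), and the Psmg2 call without WT array 18 or 38 or Kin- array 7 (up to 0.0871). Psmd5 was lost without Kin- array 46 (0.057) and Psme4 without WT array 18 (0.0575).

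At 24 h the difference was 0.635 for Psma5, 0.425 for Psma6, 0.74 for Psmb2, 0.42 for Psmb6 and 0.39 for Psmb7 in the core, and −0.38 for Psmb1. In the regulatory particle it was 0.88 for Psmc1, 0.84 for Psmc5, 0.85 for Psmd1, 1.05 for Psmd7 and 0.85 for Psmd11. Among the chaperones it was 1.01 for Psmd5, 1.07 for Psmg1, 1.24 for Psmg2 and −0.43 for Psmd10. It was 1.53 for Psme3, −0.82 for Psme4 and 1.33 for Psmc3ip. Psmb6 was lost in 19 of the 26 fits (adjusted p up to 0.179) and Psmd10 without WT array 16 or 39 or Kin- array 43 (up to 0.0872).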

How the results depend on the processing

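No single gene that was called in either fit changed sign under an alternative. The alternatives use the same arrays, so this is no separate support. Medians of parts, which carry no test, had the opposite sign 161 times, 12 of them where the median was over 0.1 in size. With arrays 1 to 14 only, the immunoproteasome median at 6 h was −0.14, against 0.22 with all arrays, and its response difference at 6 h 0.06, against −0.21. With the mean of a gene's probe sets, the median of the other activators and the inhibitor in WT at 24 h was 0.18, against −0.29. The number of the 48 genes called at 24 h in WT was 35 and stayed within 33 to 37 with 1 array left out, but was 17 with arrays 1 to 14 only. The 5 calls at 2 h became 11 with the array set as a term, 0 with arrays 1 to 14 only, 10 with the series block, 12 with array weights, 8 with the brighter probe sets only, and 2 to 8 with 1 array left out (2 without WT array 13 or 17, 3 without WT array 1, 8 without WT array 2). Of all probe sets the main fit called 14.4% at 2 h, the set term 19.0%, arrays 1 to 14 1.04%, the block 19.5% and weights 28.8%. Of the brighter probe sets 28.3% were called. The 13 calls at 6 h became 1 with arrays 1 to 14, 21 with weights, 8 with WT arrays only, and 7 (without WT array 18) to 15 with 1 left out. Of all probe sets the main fit called 19.6% at 6 h, arrays 1 to 14 3.18%, weights 27.4% and WT arrays only 16.3%. The 5 calls between 2 and 6 h became 13 with the set term, 13 with arrays 16 to 47, 0 with arrays 1 to 14, 14 with the block, 12 with weights, and 1 (without WT array 38) to 7 with 1 left out (2 without WT array 17, 3 without WT array 37 or 18, the last of these at 6 h). Of all probe sets the main fit called 13.0% there, the set term 22.9% and arrays 16 to 47 23.7%. Arrays 1 to 14 called 0% of them, the block 24.0% and weights 33.5%. The 20 calls between 6 and 24 h became 0 with arrays 1 to 14, and 14 to 22 with 1 left out. Of all probe sets the main fit called 17.8% there and arrays 1 to 14 called 0%.

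Between untreated lines the 1 call became 7 with the set term, 6 with arrays 16 to 47, 0 with arrays 1 to 14, 9 with weights, 2 with brighter probe sets, and 1 to 3 with 1 left out (3 without Kin- array 5, 2 without Kin- array 6 or 8). Of all probe sets the main fit called 3.01%, the set term 5.98%, arrays 16 to 47 5.52%, arrays 1 to 14 0% and weights 7.45%. Of the brighter probe sets 6.90% were called. The response differences numbered 3 at 2 h (6 with the set term, 5 with arrays 16 to 47, 0 with arrays 1 to 14, 9 with the block, 6 with weights, 2 to 4 with 1 left out), 8 at 6 h (15 with the set term, 0 with arrays 1 to 14, 13 with the block, 16 with weights, 5 to 10 with 1 left out, the 5 without WT array 18 or Kin- array 7) and 27 at 24 h (2 with arrays 1 to 14, 24 to 33 with 1 left out). Of all probe sets the main fit called 6.92% at 2 h, 10.8% at 6 h and 21.5% at 24 h. The set term called 11.6% at 2 h and 16.4% at 6 h, the block 11.6% and 16.9%, and weights 14.7% and 19.9%. Arrays 16 to 47 called 10.7% at 2 h. With arrays 1 to 14 the share was 0.00442% at 2 h and at 6 h, and 3.19% at 24 h. In Kin- 0 genes were called at each time under every alternative run. Medians of parts moved by more than the spread between replicates in 95 of 120 results with untransformed values and in 65 with power 0.75, which change the unit itself, in 31 with arrays 1 to 14, 13 with quantile normalization, 11 with the mean of probe sets, 8 with weights and 5 with arrays 16 to 47. Single-gene calls were lost in 66 results with arrays 1 to 14, 7 with arrays 16 to 47, 4 with the mean of probe sets, 7 with the arrays of 1 line only, 3 with quantile normalization, and 2 each with untransformed values and the trended prior. The causes were not tested, except that arrays 1 to 14 hold 10 of the 26 arrays. No paired analysis was possible between untreated lines because a series lies within 1 line. Single-gene results in this section cover only the genes with array values. Among these the block changed the call in 32 results, each newly called. The counts of calls with the block take in all genes of the symbol rule. Calls that the block changed in genes without array values are not listed, and its count from 2 to 6 h includes such genes.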
